A study of Mus musculus with 8 samples.

Results

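Excitation-contraction coupling and calcium store genes were examined as a set of 10 genes picked by name: Ryr1, Ryr3, Cacna1s, Cacnb1, Cacng1, Trdn, Jph1, Jph2, Casq1 and Atp2a1. These were 10 of the 24980 genes in the count table, and all 10 were among the 17582 genes that passed the filter on low counts. Their levels were compared across 4 groups of mouse skeletal myogenic cells with 2 libraries each, labelled TF, TE, SF and SE. TF cells were freshly isolated teratoma-derived myogenic progenitors and TE cells were the same kind of cell after culture to passage 8. SF cells were freshly isolated endogenous satellite cells, the resident stem cells of skeletal muscle, and SE cells were satellite cells after culture to passage 8.

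The teratomas grew from E14-EGFP embryonic stem cells implanted in irradiated, cardiotoxin-injured tibialis anterior muscle of NSG-mdx4Cv mice. EGFP+ cells were sorted as CD31-, CD45-, α7-integrin+ and VCAM-1+, a gate that removes endothelial and haematopoietic cells. The teratoma-derived cells thus came from 1 embryonic stem cell line, and the satellite cells came from adult muscle. The expanded cells of both origins were grown on gelatin in a medium for myogenic expansion. The labels call the 2 libraries of a group biological replicates without tying them to separate animals or cultures, so p-values measure the spread between these libraries.

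In a skeletal muscle fibre, the L-type calcium channel of the transverse tubule (the dihydropyridine receptor) senses depolarisation and opens the ryanodine receptor of the sarcoplasmic reticulum by direct contact, and the calcium released drives contraction. Junctophilins hold the tubule and the reticulum together, triadin joins the release channel to calsequestrin, the calcium buffer inside the store, and SERCA pumps return calcium to the store. In muscle this machinery is built as myoblasts leave the cell cycle, fuse and mature.

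The libraries held 11931000 to 21146600 estimated counts, of which the ribosomal RNA precursor Rn45s took 7.99% to 21.3%. Levels are given as CPM, counts scaled to a common library total after adjustment for library composition. The satellite cell marker Pax7 was present in all 8 libraries, at 199 to 319 CPM in TF, 83.6 to 101 in TE, 231 to 270 in SF and 78.2 to 115 in SE, and was called lower in the expanded cells of both origins. The SE pair stood apart from the other pairs, since all 10 genes were higher in SE replicate 2 than in SE replicate 1, with a median absolute log2 gap of 1.37 against 0.37 over all genes tested. The matching gaps over the 10 genes were 0.17 in TE, 0.44 in SF and 0.62 in TF.

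Upstream sequence was available for 6 of the 10 genes as RefSeq windows of 300 bases on GRCm38.p6, from 250 bases before to 50 bases after the start. It is shown because 8 of the 10 genes rose with expansion in each origin, so that shared letters upstream can be looked up. The core E-box CANNTG, the letters bound by MyoD-family and many other basic helix-loop-helix factors, and its CAGCTG form were searched on both strands. CAGCTG is 1 case of CANNTG, so the searches overlap. The stretches below end before the gene start, run 5′ to 3′ on the strand of the gene, and carry each CANNTG match in capitals. The Cacnb1 window lies inside the annotated gene and no stretch of it is given.
Cacna1s, chr1:136052561-136052749, plus strand: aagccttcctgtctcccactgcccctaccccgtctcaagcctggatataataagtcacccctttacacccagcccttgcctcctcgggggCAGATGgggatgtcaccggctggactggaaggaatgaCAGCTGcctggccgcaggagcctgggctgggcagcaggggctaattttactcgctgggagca
Jph2, chr2:163397994-163398243, minus strand: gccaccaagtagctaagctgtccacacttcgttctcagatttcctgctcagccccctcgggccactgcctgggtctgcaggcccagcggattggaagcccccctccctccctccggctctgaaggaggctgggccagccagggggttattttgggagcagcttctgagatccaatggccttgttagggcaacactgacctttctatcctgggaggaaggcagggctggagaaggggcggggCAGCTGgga
Casq1, chr1:172219896-172220145, minus strand: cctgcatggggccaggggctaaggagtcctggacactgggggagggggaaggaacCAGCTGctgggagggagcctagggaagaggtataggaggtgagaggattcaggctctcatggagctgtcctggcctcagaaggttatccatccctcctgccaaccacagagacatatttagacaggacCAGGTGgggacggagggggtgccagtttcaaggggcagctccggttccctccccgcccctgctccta
Atp2a1, chr7:126463109-126463323, minus strand: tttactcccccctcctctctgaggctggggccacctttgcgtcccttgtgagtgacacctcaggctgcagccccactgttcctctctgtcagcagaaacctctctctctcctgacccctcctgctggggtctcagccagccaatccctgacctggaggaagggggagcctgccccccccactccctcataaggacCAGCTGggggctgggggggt
Ryr1, chr7:29125180-29125401, minus strand: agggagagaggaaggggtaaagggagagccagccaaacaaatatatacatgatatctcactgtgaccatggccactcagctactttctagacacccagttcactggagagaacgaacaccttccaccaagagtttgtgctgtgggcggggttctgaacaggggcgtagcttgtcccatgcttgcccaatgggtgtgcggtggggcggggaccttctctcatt
CAGCTG lay in 4 of the 6 windows, 123 bases before the start of Cacna1s, 9 before Jph2, 195 before Casq1 and 55 before Atp2a1. Over all 32817 RefSeq windows of this length the share with CAGCTG was 16.3%. CANNTG of any kind was in the same 4 windows, against 72.3% of all windows, and was not found in those of Ryr1 and Cacnb1. The MEF2 consensus was found in 0 of the 6 windows and in 3.19% of all windows. A match is a string of letters in a window and not a measured binding site.

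All 10 genes are protein-coding in the GENCODE M21 annotation of GRCm38. The release channel genes are Ryr1 at chr7:29003344-29125179 and Ryr3 at chr2:112631355-113217096, both on the minus strand. The channel subunits are Cacna1s at chr1:136052750-136119822 on the plus strand, Cacnb1 at chr11:98001508-98023034 on the minus strand and Cacng1 at chr11:107703218-107716522 on the minus strand. The junction genes are Trdn at chr10:33080554-33476709 on the plus strand, Jph1 at chr1:16964560-17097889 on the minus strand and Jph2 at chr2:163336242-163397993 on the minus strand. Casq1 lies at chr1:172209894-172219868 and Atp2a1 at chr7:126445858-126463108, both on the minus strand. Exons of Atp2a1 overlap those of Rabep2 on the other strand by 763 bases, and exons of Ryr3 overlap those of Aven by 916 bases. Exons of Cacna1s overlap those of Gm37759 by 1309 bases and exons of Ryr1 those of Gm26604 by 864. These are antisense genes with no counts given. Casq1, Cacnb1 and Jph1 overlap other genes by 156, 80 and 34 bases. Of the 31-base words in the transcripts of each gene, 20.3% in Atp2a1, 18.1% in Cacna1s, 5.03% in Casq1, 4.52% in Ryr3 and 3.46% in Ryr1 occur in another gene, and at most 1.09% do in the other members. The library kit marks strand, but whether the counting used it is not given in the sources used here. Part of the counts of Atp2a1, Ryr3 and the other genes with overlaps may thus belong to the partner gene. Rabep2 itself stood at 16.1 to 34.5 CPM and Aven at 1.43 to 18.0 CPM.

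**Figure D1:**
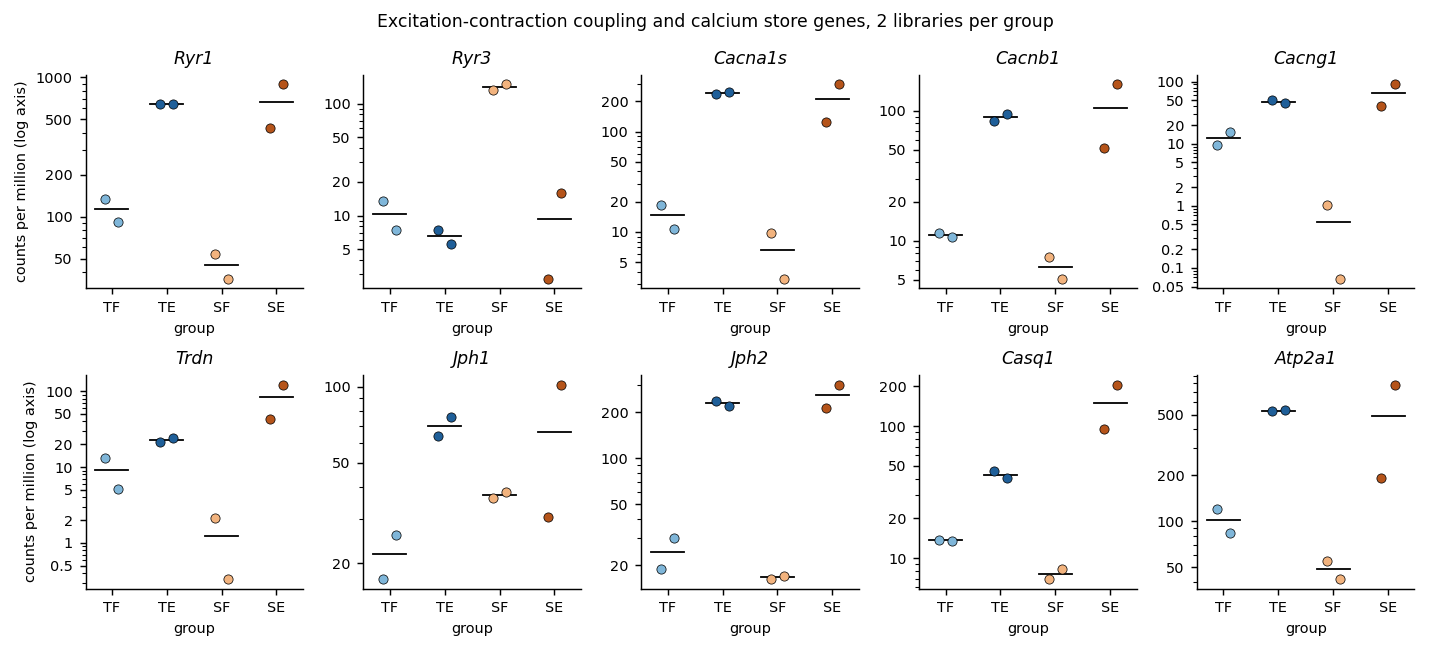
Level of each of the 10 genes in the 4 groups, as CPM on a log axis whose range differs between panels. Each point is 1 library and each bar the mean of the 2 libraries of a group. In every panel but that of Ryr3 both TE libraries lie above both TF libraries, while Ryr3 stands at 131 and 149 in SF and at no more than 15.8 elsewhere.

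The first question was how the genes differed between expanded and fresh cells of the same origin. In teratoma-derived cells 8 of the 10 genes were higher in TE than in TF and none was lower, where 9.86% of all genes tested were called higher, 16.2% lower and 26.1% in either direction. In satellite cells 8 were higher and 1 was lower in SE than in SF, where 20.9% of all genes were called higher, 19.8% lower and 40.7% in either direction. Of the genes called in satellite cells 51.4% were higher, and 40.9% with DESeq2. A gene was called at an edgeR quasi-likelihood adjusted p below 0.05 and a fold change past the threshold of the study. The median log2 fold change over the 10 genes was 2.16 in teratoma-derived cells and 4.01 in satellite cells, beside -0.18 and -0.23 over all genes tested. Bulk counts cannot tell fewer cells of a type from less RNA per cell. Ryr3 was the gene called lower, in satellite cells. The libraries of the 2 groups did not overlap for 10 of the 10 genes in TE and TF, where 69.6% of all genes did not overlap, and for 9 of the 10 in SE and SF, where 72.4% did not.

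**Figure D2:**
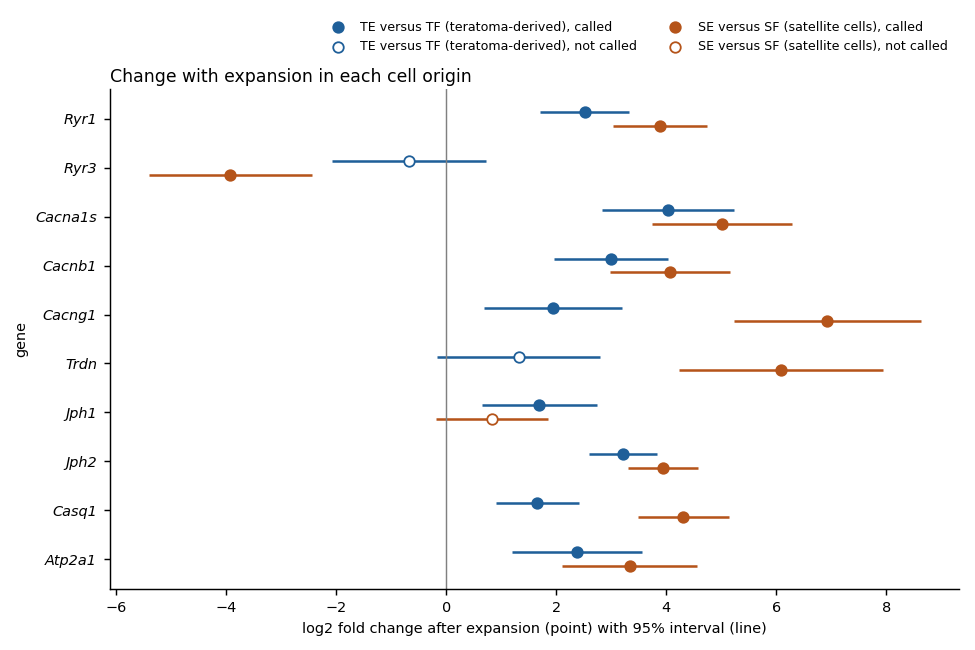
Change of each gene with expansion on the log2 scale, TE versus TF in blue and SE versus SF in brown, with the 95% interval of the edgeR fit as a line. Filled points were called and open points were not. The intervals of Ryr3 and Trdn in teratoma-derived cells and of Jph1 in satellite cells cross 0.

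Ryr1 encodes the ryanodine receptor that releases calcium in skeletal muscle. It stood at 133 and 91.6 CPM in the TF libraries, 645 and 641 in TE, 53.6 and 35.9 in SF, and 430 and 889 in SE. Each expanded library was above every fresh library, and each TF library above each SF library. The log2 fold change was 2.52 (SE 0.36, edgeR adjusted p = 0.000820) in teratoma-derived cells and 3.88 (SE 0.38, adjusted p = 5.59e-05) in satellite cells.

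Ryr3 encodes the ryanodine receptor that is found beside Ryr1 in developing muscle and in several muscles of the adult. It went the other way. It stood at 131 and 149 CPM in SF, at 13.4 and 7.42 in TF, at 7.41 and 5.60 in TE, and at 2.73 and 15.8 in SE. The SF libraries were far above all the others, while the SE pair spanned those of TF and TE. In satellite cells Ryr3 fell by 3.93 on the log2 scale (SE 0.66, adjusted p = 0.00130), or 15.1-fold between the group means. In teratoma-derived cells the difference was -0.67 (95% interval -2.07 to 0.73, adjusted p = 0.455). Within a library, Ryr1 counts were 9.96 and 12.3 times the Ryr3 counts in TF and 86.9 and 114 times in TE. In SF the ratio was 0.408 and 0.241, so Ryr3 held the larger count there, and in SE it was 157 and 56.3. Aven, the gene whose exons overlap Ryr3, was at 10.1 and 18.0 CPM in SF, 6.90 and 6.30 in TF, 16.3 and 14.3 in TE, and 9.57 and 1.43 in SE. Its part in the Ryr3 counts was not tested.

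The subunits of the skeletal L-type calcium channel rose in both origins. Cacna1s encodes the pore that senses voltage. Its levels were 18.8 and 10.7 CPM in TF, 234 and 247 in TE, 9.67 and 3.43 in SF, and 125 and 296 in SE. The expanded libraries lay above all the fresh ones. The log2 fold change was 4.03 (SE 0.54, adjusted p = 0.000550) in teratoma-derived cells, the largest of the 10 genes there, and 5.01 (SE 0.57, adjusted p = 0.000126) in satellite cells.

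Cacnb1 encodes the cytoplasmic subunit that brings the pore to the membrane. It measured 11.5 and 10.8 CPM in TF, 83.3 and 94.8 in TE, 7.49 and 5.11 in SF, and 51.8 and 160 in SE. The fresh and expanded libraries did not overlap in either origin. Its log2 fold changes were 2.998 (SE 0.47, adjusted p = 0.00134) and 4.07 (SE 0.49, adjusted p = 0.000177).

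Cacng1 encodes the skeletal gamma subunit. It was at 9.42 and 15.4 CPM in TF, 50.3 and 45.0 in TE, 1.02 and 0.0673 in SF, and 40.2 and 90.8 in SE. The SF values rest on 14 counts and 1 count, so the size of its change in satellite cells is set by very few reads. The log2 fold change was 1.94 (SE 0.56, adjusted p = 0.0301) in teratoma-derived cells and 6.93 (SE 0.76, adjusted p = 0.000104) in satellite cells. The teratoma-derived call was lost without TF replicate 1 (adjusted p = 0.104) and without TE replicate 1 (adjusted p = 0.0656), and the satellite value ran from 6.02 to 9.77 when single libraries were left out.

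Among the junction genes the largest change in teratoma-derived cells was that of Jph2, which encodes the junctophilin shared by heart and skeletal muscle. It stood at 18.9 and 30.3 CPM in TF, 237 and 220 in TE, 16.4 and 17.1 in SF, and 212 and 303 in SE. The expanded libraries were all at 212 or more and the fresh libraries all at 30.3 or less. Its log2 fold changes of 3.21 (SE 0.27, adjusted p = 4.08e-05) and 3.95 (SE 0.28, adjusted p = 1.01e-05) had the smallest standard errors of the 10 genes.

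Jph1, the skeletal junctophilin, moved less. Its levels were 17.3 and 25.9 CPM in TF, 63.8 and 76.0 in TE, 36.0 and 38.2 in SF, and 30.3 and 102 in SE. TE lay above TF, but SE replicate 1 lay below both SF libraries. The log2 fold change was 1.69 (SE 0.47, adjusted p = 0.0253) in teratoma-derived cells, a call lost without TF replicate 1 (adjusted p = 0.0959) and without TE replicate 2 (adjusted p = 0.0584). In satellite cells it was 0.83 (95% interval -0.19 to 1.86, adjusted p = 0.168) and turned from 1.48 (called) without SE replicate 1 to -0.28 without SE replicate 2. Jph2 counts were 1.09 and 1.17 times the Jph1 counts in TF, 3.71 and 2.89 times in TE, 0.454 and 0.448 times in SF, and 7.01 and 2.98 times in SE.

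Trdn encodes triadin. It was at 13.2 and 5.19 CPM in TF, 21.4 and 24.2 in TE, 2.11 and 0.336 in SF, and 43.0 and 122 in SE. The fresh and expanded libraries did not overlap in either origin, and the SF values rest on 29 and 5 counts. Trdn rose by 6.09 on the log2 scale in satellite cells (SE 0.83, adjusted p = 0.000368), with values from 5.16 to 7.91 when single libraries were left out. In teratoma-derived cells the log2 fold change was 1.31 (95% interval -0.16 to 2.79, adjusted p = 0.168), which was called without SE replicate 1 (adjusted p = 0.0455) and with no filter on low counts (adjusted p = 0.000624).

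Casq1 encodes the calsequestrin of fast fibres, which holds calcium in the store. Its levels were 13.8 and 13.5 CPM in TF, 45.7 and 40.3 in TE, 6.98 and 8.21 in SF, and 94.7 and 207 in SE. The groups did not overlap, and their order was SF, TF, TE and SE. The log2 fold change was 1.66 (SE 0.33, adjusted p = 0.00573) in teratoma-derived cells and 4.31 (SE 0.37, adjusted p = 2.66e-05) in satellite cells.

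Atp2a1 encodes SERCA1, the calcium pump of fast skeletal fibres. It stood at 120 and 84 CPM in TF, 526 and 531 in TE, 54.7 and 42.0 in SF, and 191 and 785 in SE. Every expanded library was above every fresh one, and the SE libraries were 4.12-fold apart. Its log2 fold changes were 2.38 (SE 0.53, adjusted p = 0.00909) and 3.33 (SE 0.55, adjusted p = 0.00112), and the satellite value ran from 1.99 to 4.04 when single libraries were left out. Rabep2, whose exons overlap Atp2a1, reached no more than 34.5 CPM in any library.

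Levels of different genes were set side by side as CPM per kilobase of the median protein-coding transcript. On this scale Atp2a1 was first in every group, with a mean of 49.0 ± 12.1 (SD, n = 2) in TF, 254 ± 1.68 in TE, 23.3 ± 4.33 in SF and 235 ± 202 in SE. Ryr3 was second in SF at 9.11 ± 0.81 and last of the 10 in TF, TE and SE, at 0.68 ± 0.27, 0.42 ± 0.083 and 0.60 ± 0.60. Jph2 was second in TE at 54.6 ± 2.85 and Casq1 second in SE at 129 ± 67.7. In SE Atp2a1 and Casq1 did not differ beyond their spread. These places were the same with the longest transcript in place of the median one, while most of the other places changed with that choice.

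A chosen list of 12 paralogs of the 10 genes was read in the same fit. In teratoma-derived cells 2 rose and 4 fell with expansion, where 9.86% of all genes were called higher and 16.2% lower. In satellite cells 2 rose and 4 fell, where 20.9% of all genes were called higher and 19.8% lower. The medians were -1.17 and -1.61 on the log2 scale, beside -0.18 and -0.23 over all genes tested. Casq2, the calsequestrin of heart and slow muscle, rose with Casq1. It went from 18.8 and 6.06 CPM in TF to 187 and 223 in TE, and from 11.1 and 11.8 in SF to 156 and 308 in SE, with log2 fold changes of 4.05 (SE 0.50, adjusted p = 0.000350) and 4.34 (SE 0.51, adjusted p = 0.000146). Casq1 counts were 0.244 and 0.181 times those of Casq2 in TE, and 0.606 and 0.671 times in SE.

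The pores Cacna1c and Cacna1d, also of the L-type family, fell. Cacna1c, the pore of heart and smooth muscle, went from 50.2 and 40.7 CPM in TF to 0.756 and 0.519 in TE, and from 38.9 and 31.9 in SF to 0.849 and 5.03 in SE. These were changes of -6.14 (SE 0.75, adjusted p = 0.000338) and -3.60 (SE 0.65, adjusted p = 0.00187) on the log2 scale. Cacna1d, a pore of neurons and endocrine cells, fell by 5.82 (adjusted p = 3.95e-05) and 7.32 (adjusted p = 1.10e-05). Within a library, Cacna1s counts were 0.108 to 0.374 times those of Cacna1c in the 4 fresh libraries and 58.9 to 475 times in the 4 expanded ones.

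Ryr2, the cardiac release channel, fell from 10.8 and 2.31 CPM in TF to 0.151 and 0.208 in TE, the latter on 3 and 4 counts. It fell from 10.2 and 3.16 in SF to 0.801 and 0.172 in SE (adjusted p = 0.0156 and 0.0288). Atp2a2, the pump of slow muscle and of most other cells, stayed between 357 and 598 CPM in all 8 libraries, with differences of 0.26 (95% interval -0.25 to 0.76) and 0.30 (95% interval -0.21 to 0.80) that were not called. Atp2a1 counts were 0.0897 to 0.309 times those of Atp2a2 in the fresh libraries and 0.457 to 1.31 times in the expanded ones.

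**Figure D3:**
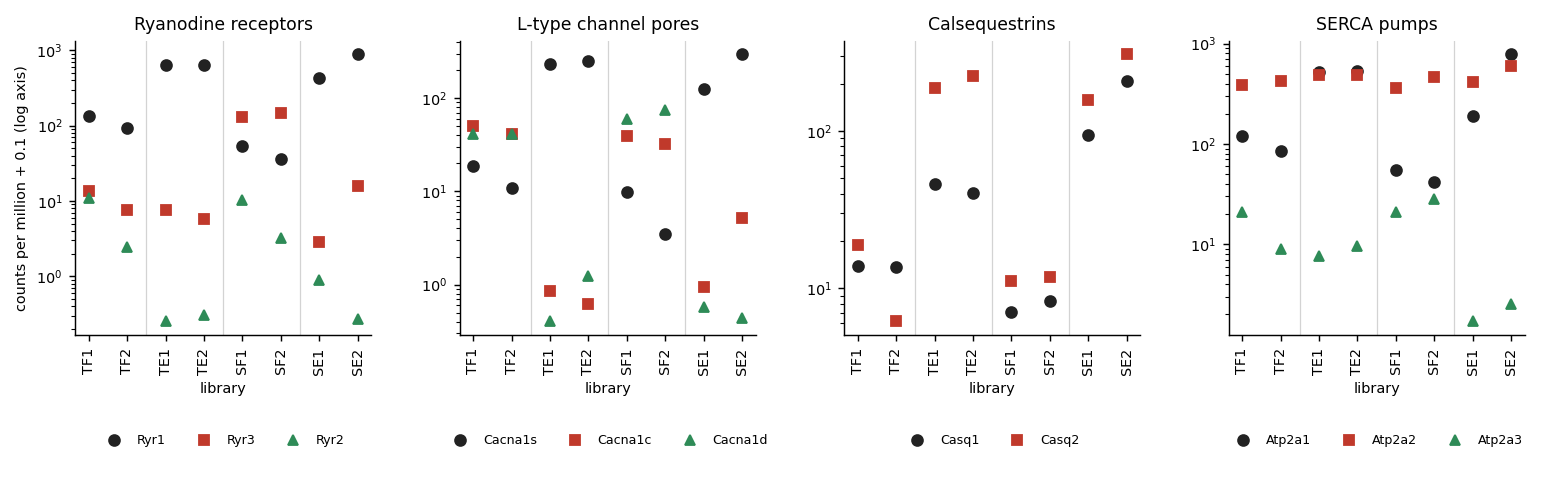
Levels of related genes in the 8 libraries, as CPM with 0.1 added, on log axes whose range differs between panels. Black circles are members and the other symbols their relatives, except that Ryr3 is also a member. Cacna1s lies below Cacna1c in the fresh libraries and above it in the expanded ones, and Ryr3 lies above Ryr1 in SF.

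Of the remaining paralogs, Cacnb3, a channel subunit with wide expression, was higher in SE than in SF by 2.61 (adjusted p = 0.000138) and did not pass in TE versus TF (0.16, adjusted p = 0.699). Atp2a3, the pump of endothelial and blood cells, fell by 3.60 in satellite cells (adjusted p = 0.000569) and showed -0.80 in teratoma-derived cells (adjusted p = 0.236). Cacnb2 was called lower in TE, where it held 2 counts and 0 counts, against 83 and 77 in TF. Cacng6 was called higher in TE, at 2.98 and 4.10 CPM against 0.252 and 0 in TF, where it held 3 counts and 0 counts. Jph3, Jph4 and Cacnb4 were not called in either origin.

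Of 18 other genes of the skeletal triad and its store, 10 rose, 1 fell and 7 were not called in TE against TF. In SE against SF 12 rose and 6 were not called. The medians were 1.496 and 1.58 on the log2 scale, beside -0.18 and -0.23 over all genes tested. Over all genes 9.86% were called higher and 16.2% lower in TE against TF, and 20.9% and 19.8% in SE against SF. Hrc, a calcium-binding protein of the store, rose by 4.26 (SE 0.65, adjusted p = 0.00118) and 4.65 (SE 0.66, adjusted p = 0.000487). Srl, or sarcalumenin, which buffers calcium beside the pump, rose by 3.43 (adjusted p = 0.000411) and 5.23 (adjusted p = 3.66e-05). Tmem38a, a potassium channel of the store membrane, rose by 3.31 (adjusted p = 0.000340) and 2.97 (adjusted p = 0.000332), and Cav3, a caveolin of muscle membrane, rose by 2.29 (adjusted p = 0.0396) and 4.87 (adjusted p = 0.00131). Stac3, which couples the channel to the release channel, rose by 2.70 (adjusted p = 0.000169) and 4.30 (adjusted p = 1.13e-05).

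Asph, whose products include junctin, fell by 0.70 in teratoma-derived cells (adjusted p = 0.0194) and rose by 1.17 in satellite cells (adjusted p = 0.000906). The gene also encodes an aspartyl hydroxylase that many cells make, and the table does not separate its products. The small SERCA regulators Sln and Mrln and the calcium buffer Pvalb did not pass in either origin and stood at 6.70 CPM or less in every library.

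Store-operated entry and IP3 receptor genes refill the store or release calcium from it in many cell types. The list of 9 also held Tmem38b, the widely expressed relative of Tmem38a, which is of neither kind. Of the 9 genes, Tmem38b alone rose and 2 fell in teratoma-derived cells, where 9.86% of all genes were called higher and 16.2% lower. In satellite cells 2 rose, Tmem38b and Orai2, and 2 fell, where 20.9% of all genes were called higher and 19.8% lower. In satellite cells these calls were about as frequent as over all genes. Itpr1 fell by 2.51 (adjusted p = 0.000402) and 2.72 (adjusted p = 0.000162), and Itpr2 by 2.78 (adjusted p = 0.000135) and 2.48 (adjusted p = 0.000136). Tmem38b rose by 1.83 (adjusted p = 0.00616) and 1.16 (adjusted p = 0.0302). Orai2 rose by 3.43 in satellite cells (adjusted p = 0.000347), and Stim1 and Orai1, the best known pair of this pathway, were not called in either origin.

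**Figure D4:**
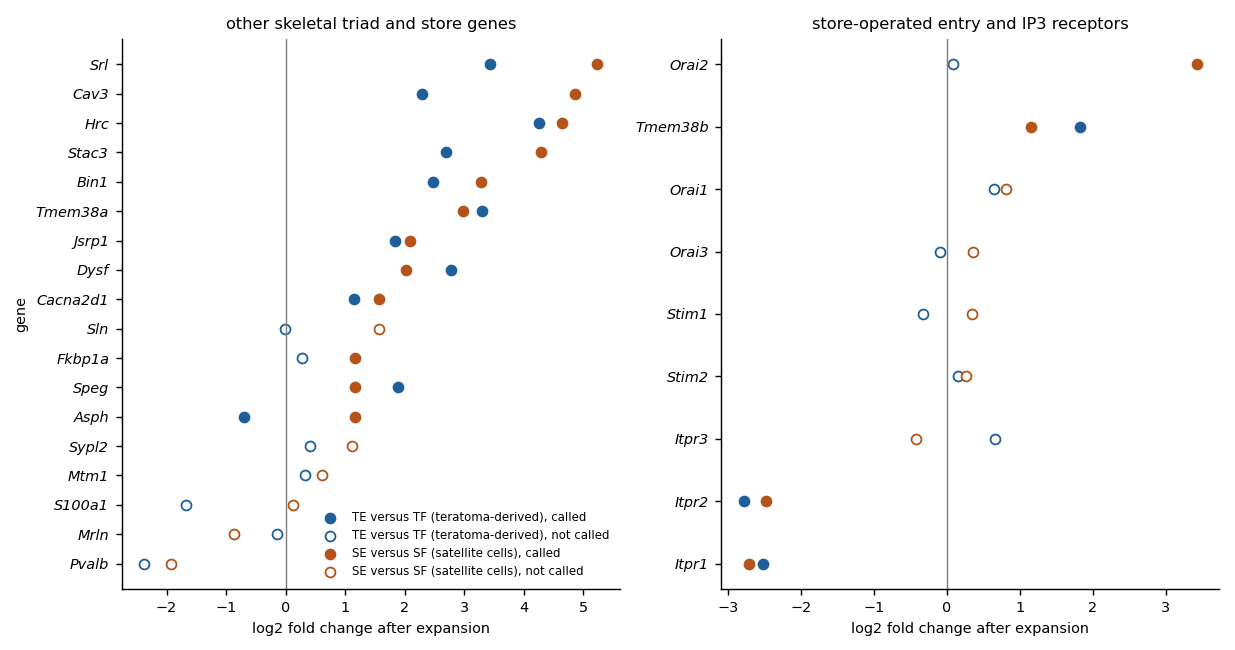
Log2 fold change with expansion of 18 other skeletal triad and store genes on the left. The list of 9 store-operated entry and IP3 receptor genes, which includes Tmem38b, is on the right. Each point is 1 gene in 1 origin, filled where called. Hrc lies above 4 in both origins, while Itpr1 and Itpr2 lie below -2 in both.

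Markers of differentiation and of other cell types moved with expansion as well. The 7 myogenic progenitor markers did not move as one. Pax7 fell by 1.49 on the log2 scale in teratoma-derived cells (adjusted p = 0.00361) and 1.38 in satellite cells (adjusted p = 0.00325), Myf5 by 3.33 and 3.86, and Vcam1 by 2.88 and 1.90, all called. Des and Cdh15 rose in both origins, and Myod1 and Itga7 were called higher in teratoma-derived cells (adjusted p = 0.0516 and 0.0679 in satellite cells). Their summed level was 1303 to 1625 CPM in TF, 2255 to 2290 in TE, 1977 to 2560 in SF and 2747 to 3335 in SE, with Des the largest part in each library. The summed level of 12 differentiating myocyte genes was 704 to 1456 CPM in TF, 10123 to 10685 in TE, 96.8 to 126 in SF and 8441 to 19155 in SE. It was the higher of the pair in SE replicate 2, as were all 10 members. Of these 12 genes 10 rose in teratoma-derived cells and 11 in satellite cells, where 9.86% and 20.9% of all genes were called higher.

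The summed level of 4 fibro-adipogenic markers was 1631 to 1668 CPM in TF and 872 to 1469 in SF, and 1.45 to 4.89 in the expanded libraries, with 1 or 2 of the 4 genes at 0 in each. The 4 endothelial markers summed to 63.1 to 219 in TF, 264 to 335 in SF and 0.467 to 2.22 in expanded cells, with Kdr at 0 in each of the 4. The 4 haematopoietic markers summed to 20.3 to 160 in TF, 16.9 to 18.6 in SF and 0.756 to 6.29 in expanded cells, with Ptprc and Adgre1 at 0 in each of the 4. Pecam1 and Ptprc, which encode the sorted-out antigens CD31 and CD45, had 69 to 1077 and 23 to 595 counts in the fresh libraries. Of the 4 smooth muscle and pericyte markers, Acta2, which differentiating muscle cells also express, rose in both origins, from 446 and 497 CPM in TF to 1521 and 1507 in TE and from 191 and 154 in SF to 343 and 1456 in SE. Myh11 and Rgs5 fell in both, Rgs5 from 119 and 91.5 CPM in TF to 0 in both TE libraries, and Cspg4 fell in teratoma-derived cells. The sum of the 4, which Acta2 dominated in expanded cells, was 771 to 915 in fresh cells, 1541 to 1547 in TE and 426 to 1558 in SE. The 5 neuron markers summed to 3.67 to 20.6 in fresh and 21.3 to 89.4 in expanded cells, most of it Stmn2, at 66.9 to 80.6 CPM in TE and 15.7 to 28.7 in SE. Stmn2 was called higher with expansion in both origins. Tubb3 was called higher in SE than in SF, at 7.73 and 4.97 CPM against 1.31 and 0.269 (edgeR adjusted p = 0.0488), and was not called in TE against TF. Elavl3 was at 0.555 CPM or less in the expanded libraries and Syt1 at 0 in each of them. Elavl3, Syt1 and Snap25 were not called in either origin. The 6 cardiomyocyte markers summed to 3.57 to 103 in fresh and 812 to 2246 in expanded cells. Tnnt2 and Myl4, which embryonic skeletal muscle also expresses, made up most of the sum in expanded cells and rose in both origins. Myh6 was called higher in TE, at 91.3 and 113 CPM against 9.42 and 4.31 in TF (edgeR adjusted p = 0.0177). It was not called in SE against SF, at 1.37 and 7.09 CPM in SE, and was called higher in TE than in SE (adjusted p = 0.0261). Nppa and Myl7, at 1.89 CPM or less in every library, did not pass the filter, and Tnni3 was not called in either origin. The part of these genes in the results was not tested.

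**Figure D5:**
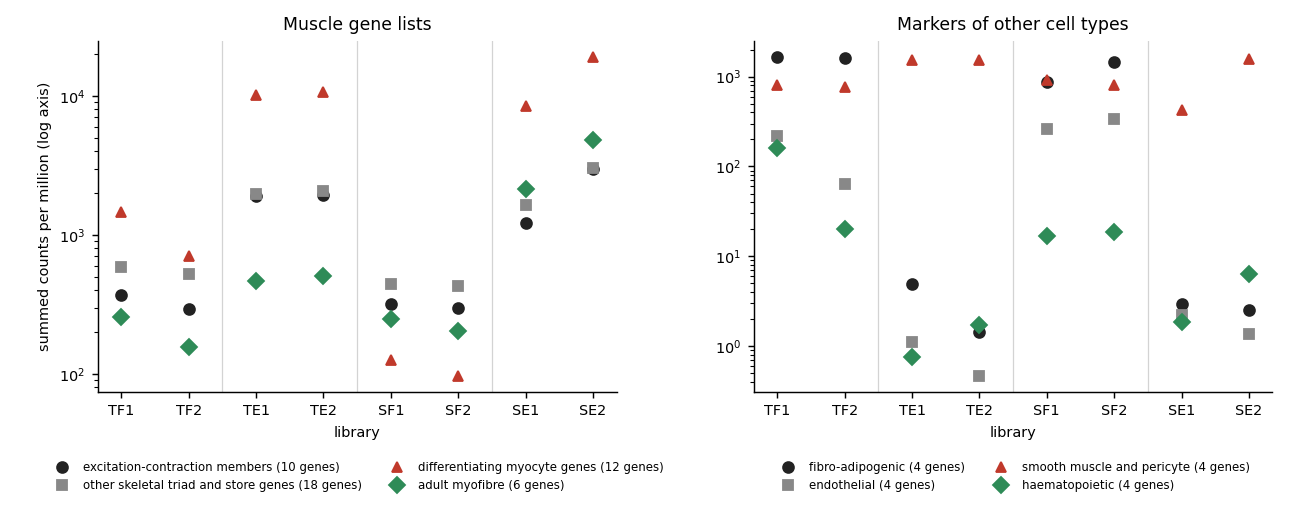
Summed level of gene lists in each of the 8 libraries, as CPM on log axes, with muscle gene lists on the left and markers of other cell types on the right. The 10 members sum to 295 to 369 in the fresh libraries and to 1221 to 2971 in the expanded ones. Ryr3 alone gives 131 and 149 of the SF sums of 319 and 299. The fibro-adipogenic sum is at most 4.89 in expanded cells.

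The fresh groups were compared with each other next. Of the 10 genes, 3 were higher and 1 was lower in TF than in SF, where 15.1% of all genes were called higher, 9.13% lower and 24.2% in either direction. Of all calls 62.3% were higher in TF, and 52.1% with median-ratio scaling and 48.7% with DESeq2. Cacng1 was higher by 4.53 (SE 0.73, adjusted p = 0.00240), Trdn by 2.92 (SE 0.77, adjusted p = 0.0227) and Ryr1 by 1.33 (SE 0.35, adjusted p = 0.0221). The libraries of the groups did not overlap for 10 of the 10 genes, as for 64.8% of all genes. Ryr3 was lower by 3.75 on the log2 scale (SE 0.66, adjusted p = 0.00368), a 13.5-fold higher mean in SF. The calls for Ryr1 and Trdn were lost without TF replicate 1 (adjusted p = 0.0980 and 0.0776) and without SF replicate 2 (adjusted p = 0.0818 and 0.0705). The Trdn call was also lost, and one for Atp2a1 gained, in the fit of the TF and SF libraries alone (adjusted p = 0.106 and 0.0338). The number called was 2 without TF replicate 1 or SF replicate 2. It was 9 with no filter on low counts. Leaving out SE replicate 1 or SE replicate 2, libraries of neither group compared, also added calls. Each such fit reran the filter on low counts, the scaling and the shared estimate of spread. The part of each was not tested. The Cacng1 value, which rests on 14 counts and 1 count in SF, ran from 3.62 to 7.36 over the left-out libraries. Of the other 6 genes, Cacna1s, Cacnb1, Jph2, Casq1 and Atp2a1 had values between 0.56 and 1.17 in favour of TF and Jph1 had -0.78, none of them called. Of the other lists, 5 of the 18 triad genes were higher and 1 was lower in TF, the largest differences being 2.57 for Cav3 (adjusted p = 0.0405), -1.60 for Speg (adjusted p = 0.00563) and 1.54 for Srl (adjusted p = 0.0259). Among the paralogs Cacnb3 was called, higher by 2.57 (adjusted p = 0.000512), and 11 of the 12 differentiating myocyte genes were higher in TF.

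The fresh satellite cells held several members at a level out of step with Myog, the transcription factor of differentiating myocytes. Myog was at 0.509 and 0.875 CPM in SF, on 7 and 13 counts, against 86.0 and 94.0 in TF, 753 and 797 in TE, and 263 and 900 in SE. Atp2a1 counts were 108 and 48.0 times the Myog counts in SF and 0.667 to 1.39 times in the other 6 libraries. Ryr1 counts were 105 and 41.1 times the Myog counts in SF and 0.804 to 1.64 times elsewhere. Myh4, a myosin of fast adult fibres, was at 102 and 82.3 CPM in SF and at 22.0 and 13.5 in TF. It was called lower in TF than in SF. Myh1, another of the 6 adult myofibre markers, went the other way. It was called higher in TF by 1.81 on the log2 scale (edgeR adjusted p = 0.00949). The other 4 were not called. The 6 markers summed to 203 to 248 CPM in SF and 156 to 257 in TF. Their part in the levels of Atp2a1 and Ryr1 in SF was not tested.

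The expanded groups were closer to each other. Of the 10 genes 1 was called, lower in TE than in SE, where 4.07% of all genes were called lower, 3.15% higher and 7.21% in either direction. That gene was Casq1, with a log2 difference of -1.81 (SE 0.33, 95% interval -2.54 to -1.07, adjusted p = 0.0101) and a mean 3.504-fold higher in SE. The call was lost without TE replicate 2 (adjusted p = 0.0517). Trdn showed -1.85 (95% interval -3.31 to -0.40, adjusted p = 0.137) and was called without SF replicate 2 (adjusted p = 0.0466) and with no filter on low counts (adjusted p = 7.42e-07). The differences of the other genes lay between -0.50 and 0.19, and their intervals were wide, from -0.80 to 0.72 for Ryr1, from -0.73 to 0.38 for Jph2 and from -1.001 to 1.23 for Atp2a1.

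Leaving out either SE library changed calls in this comparison. Without SE replicate 2, Jph1 was higher in TE by 1.21 and Atp2a1 by 1.47, both called. Without SE replicate 1, Ryr3 was lower in TE by 1.27 and Trdn by 2.41, both called. Among the markers, Myh1 was at 1939 and 4263 CPM in SE and 102 and 131 in TE. Of the 6 adult myofibre markers, Myh1 and Myh4 were called lower in TE and the other way went Myh2. Myh2 was at 18.3 and 23.5 CPM in TE and 1.04 and 3.32 in SE (edgeR adjusted p = 0.0258). The other 3 were not called. The 6 summed to 2138 to 4791 in SE, most of it Myh1, and 468 to 509 in TE. Of the 12 differentiating myocyte genes edgeR called 0 between TE and SE, as did DESeq2, and 1, Acta1, had an unadjusted p below 0.05. Of the 18 triad genes Asph alone was called, lower in TE by 1.17 (adjusted p = 0.00522). The part of the fibre markers in the Casq1 difference was not tested.

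Set against SE, TF was lower for 9 of the 10 genes, where 9.16% of all genes were called lower and 23.6% in either direction. Log2 differences ran from -3.84 for Cacna1s to -1.61 for Jph1. Ryr3 was the exception, with 0.18 (95% interval -1.21 to 1.56). This comparison shares its libraries with those above. The Jph1 call was lost without TF replicate 1 (-1.36, adjusted p = 0.127) and without SE replicate 2 (-0.49, adjusted p = 0.307), and Ryr3 was called higher in TF without SE replicate 2 (1.92). In the fit of the TF and SE libraries alone the calls for Jph1 (adjusted p = 0.0976) and Atp2a1 (adjusted p = 0.0510) were lost.

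Whether expansion acted alike in both origins was tested as an interaction, the change in teratoma-derived cells minus the change in satellite cells. It was called for 4 of the 10 genes, 1 positive and 3 negative, where 4.7% of all genes were called positive, 9.62% negative and 14.3% in either direction. Of all calls 32.8% were positive, and 43.9% with DESeq2. The change was smaller in teratoma-derived cells for Cacng1, with a log2 difference of -4.99 (SE 0.91, adjusted p = 0.00658), for Trdn, with -4.77 (SE 1.01, adjusted p = 0.0132), and for Casq1, with -2.65 (SE 0.47, adjusted p = 0.00597). For Ryr3 it was 3.26 (SE 0.88, adjusted p = 0.0370), the fall in satellite cells being the larger. In the SF libraries Cacng1 held 14 counts and 1 count, Trdn 29 and 5, and Casq1 96 and 122. The Ryr3 call was lost without any 1 of TF replicate 2, TE replicate 1, SF replicate 1 and SF replicate 2, at adjusted p from 0.0505 to 0.0684. For the other 6 genes the difference ran from -1.37 for Ryr1 (adjusted p = 0.0938) to 0.86 for Jph1 and was not called. With no filter on low counts 8 genes were called. Without SE replicate 1, Ryr1, Cacnb1 and Atp2a1 were called too, at -1.79, -1.66 and -1.64, and without SE replicate 2 Jph1 was called at 1.98 while Atp2a1 turned to 0.39. Among the other lists the interaction was negative for 3 of the 18 triad genes, Asph (-1.87, adjusted p = 0.00191), Stac3 (-1.60, adjusted p = 0.0271) and Fkbp1a (-0.91, adjusted p = 0.0477). It was also negative for Orai2 (-3.34, adjusted p = 0.00648) and for 11 of the 12 differentiating myocyte genes.

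Over the 8 libraries the members followed each other to different degrees. The Pearson r of log2 CPM was 0.99 between Ryr1 and Cacna1s and 0.98 between Ryr1 and Atp2a1, against 0.65 between Ryr1 and Jph1. Ryr3 was negative with each of the other 9, from -0.07 with Jph1 to -0.87 with Cacng1. These points are 4 groups of 2 libraries, so the coefficients mostly repeat the differences between groups. Among all genes tested, those most like Ryr1 were Cand2, Tpm2 and Tceal7 (r from 0.995 to 0.997), and those most like Cacna1s were Abraxas2, Tmem161a and Hrc. Cacnb1 was closest to Myh7, Bin1 and Cdk5r1, Cacng1 to Tmem201, Cisd1 and Tsta3, and Trdn to Hspb7, Acta1 and Zdhhc12. Jph2 was closest to Prune1, 1190002N15Rik and Nexn, Casq1 to Aldoa, Impa2 and Pde4dip, and Atp2a1 to Ccdc141, Gatm and Erbb3. The genes most like Ryr3 were Gpr4, Zmym5 and Gm15880 (r from 0.988 to 0.993), and those most like Jph1 were Chpt1, Epg5 and Zfp276 (r from 0.955 to 0.971).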

How the data were processed

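RNA was measured in 8 libraries, 2 in each of 4 groups (TF, TE, SF, SE), made with a stranded total RNA kit for low input. The authors deposited a table of estimated counts per gene, and the submitters' processing notes name CASAVA, kallisto 0.44.0 and the builds GRCm38 and mm10. The step that summed transcripts to genes is not given in the sources used here. Between 74.4% and 84.4% of the deposited count values were whole, and all were rounded. The libraries held 11931000 to 21146600 counts.

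Genes were filtered with filterByExpr and scaled by TMM in edgeR 4.0.16 (R 4.3.3), and 1 quasi-likelihood fit over the 4 groups gave 6 comparisons (the 5 pairs described and the interaction of expansion and origin). P-values were adjusted by Benjamini-Hochberg over all 17582 genes tested, and genes were called at an adjusted p below 0.05 and a fold change above 1.25, the thresholds of the study. CPM values are on the TMM scale. The likeness of genes used log2(CPM + 0.5). Intervals are at the 95% level. Motifs and 31-base words were searched in RefSeq and GENCODE M21 sequence. The scripts were tested on simulated counts.

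The 10 genes, the lists of other triad genes, paralogs, store-operated entry genes, differentiating myocyte genes and 8 sets of cell type markers were chosen with earlier results of these data known. Named genes were all 10 members, up to 3 called genes with the largest change in each other list and comparison, genes needed to account for a list, and the 3 genes most like each member. Alternatives were median-ratio scaling, no filter on low counts, DESeq2 1.42.0, a test against the fold threshold, a fit of the compared groups alone, the replicate number as a block, removal of Rn45s, and leaving out each library.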

Additional observations from a re-analysis of the deposited data

Results flagged for a closer look

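The change with expansion differed between teratoma-derived and satellite cells for 4 of the 10 genes by the interaction term of the edgeR fit. Of all genes tested 14.3% were called, 4.7% positive and 9.62% negative. The log2 difference, teratoma-derived minus satellite, was 3.26 for Ryr3 (adjusted p = 0.0370), -4.99 for Cacng1 (adjusted p = 0.00658), -4.77 for Trdn (adjusted p = 0.0132) and -2.65 for Casq1 (adjusted p = 0.00597). The Ryr3 value ran from 2.49 to 4.99 when single libraries were left out, and its call was not kept in all of those fits. In both origins the libraries of Cacng1, Trdn and Casq1 were higher after expansion. Cacng1 and Casq1 were called higher in both origins, so their differences are of size and not of direction. Trdn was not called in TE versus TF (log2 fold change 1.31, edgeR adjusted p = 0.168), so its direction in teratoma-derived cells is not settled.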

How the results depend on the processing

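Over the settings tried, 823 of the single-gene results kept their direction and side of the threshold, 36 became called, 18 lost their call and 13 turned in direction, the last all with a library left out. With no filter on low counts, 9 of the 10 genes were called in TF versus SF, 2 in TE versus SE and 8 in the interaction. The same setting called 2 paralogs in TF versus SF, and 4 triad genes, 2 store-operated entry genes, 4 differentiating myocyte genes and 2260 genes in all in TE versus SE, and 5 triad genes and 2 store-operated entry genes in the interaction. DESeq2 called 2 paralogs in TF versus SF, and 2 triad genes and 2163 genes in all in TE versus SE, against 1268 in edgeR. The triad genes called in TF versus SF fell from 6 to 3 with median-ratio scaling, with the test against the fold threshold, with the fit of the compared groups alone and without Rn45s. The test against the fold threshold called 1 store-operated entry gene there, and the fit of the compared groups alone called 2 paralogs there, and 0 paralogs and 0 store-operated entry genes in TE versus SE. Median-ratio scaling moved the median of all genes by -0.19 in SE versus SF, -0.16 in TF versus SF and 0.14 in the interaction, and turned no direction of a member. The cause of these changes was not tested.

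A group left with 1 library was assumed to vary like the others. Without single libraries the members called ran from 6 to 9 in TE versus TF, 9 to 10 in SE versus SF, 2 to 9 in TF versus SF, 0 to 3 in TE versus SE, 8 to 9 in TF versus SE and 3 to 7 in the interaction. All genes called ran from 2739 to 5439 in TE versus TF, 2639 to 5072 in TF versus SF, 653 to 1698 in TE versus SE, 2772 to 4589 in TF versus SE and 1467 to 2996 in the interaction. In TF versus SF, TE versus SE and the interaction, triad calls ran from 1 to 7, 0 to 3 and 1 to 5, paralog calls from 1 to 2, 0 to 2 and 1 to 4, and store-operated entry calls from 1 to 3, 0 to 4 and 1 to 2. Differentiating myocyte calls ran from 0 to 4 in TE versus SE. Store-operated entry calls ran from 3 to 6 in SE versus SF and from 2 to 4 in TF versus SE.

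Directions turned for Jph1 in SE versus SF (1.48 without SE replicate 1, -0.28 without SE replicate 2) and for 8 of the 10 genes in TE versus SE. There the lowest and highest values without single libraries were -0.46 and 0.58 for Ryr1, -1.27 and 1.249 for Ryr3, -0.29 and 0.94 for Cacna1s, -0.83 and 0.78 for Cacnb1, -0.92 and 0.25 for Cacng1, -0.53 and 1.21 for Jph1, -0.40 and 0.10 for Jph2, and -0.56 and 1.47 for Atp2a1. In each case the lowest was without SE replicate 1 and the highest without SE replicate 2, and Jph1 also turned to -0.04 without TE replicate 2. Ryr3 in TF versus SE ran from -0.62 without SE replicate 1 to 1.92 without SE replicate 2 (-0.32 without TF replicate 1), and the interaction of Atp2a1 from -1.64 without SE replicate 1 to 0.39 without SE replicate 2.

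No label ties the libraries of different groups by replicate number, and correlations of their deviations ran from -0.020 to 0.032. Such values cannot exclude libraries paired by animal or culture. With the replicate number as a block, the members called were 8, 9, 4, 1, 9 and 4 in the same order of comparisons and all genes called 4321, 6757, 3979, 1205, 3885 and 2327, and no call of a member changed. The counts of 14 and 1 for Cacng1 and of 29 and 5 for Trdn in SF limit the precision of their changes.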
